A study of Mus musculus with 14 samples.

Results

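The enzymes that write, keep and remove DNA methylation, together with the core Polycomb subunits, were followed in mouse gastric tumours grown from transplants. The set was chosen by name, with earlier results of these data known. It holds 10 genes of the 24421 in the deposited tables: Dnmt1, Dnmt3a, Dnmt3b, Uhrf1, Hells, Tet1, Ezh2, Eed, Suz12 and Bmi1. Polyadenylated RNA of bulk tumour tissue was sequenced in 12 libraries, 3 in each of 4 groups: TMPC tumours grown orthotopically, that is in the organ of origin, and TMPC, TMP and TM tumours grown subcutaneously, that is under the skin. All tumours were taken 2 months after transplantation. What the letters of TM, TMP and TMPC stand for is not explained in the labels, which also give no strain, sex or age of the host mice and no origin of the transplanted cells, so they serve as names only. Whether the 3 libraries of a group came from separate mice or transplanted lines is not stated either, and the p-values thus cover library-to-library spread, part of which may be technical.

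Methyl groups on the cytosines of CG dinucleotides are copied after each round of DNA replication by Dnmt1, which Uhrf1 brings to newly replicated DNA, while Dnmt3a and Dnmt3b set new methylation and Tet1 oxidises methylcytosine towards its removal. Polycomb repressive complex 2 (PRC2) places methyl groups on lysine 27 of histone H3 through its catalytic subunit Ezh2 or, in place of it, Ezh1, with Eed and Suz12 as the other core subunits, and Polycomb repressive complex 1 (PRC1), of which Bmi1 is one possible subunit, marks histone H2A with ubiquitin. Both systems keep genes silent through cell division, and in gastric cancer abnormal promoter methylation and high EZH2 are widely described.

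The 10 genes lie on 9 chromosomes of the mm10 build. Those of DNA methylation are Dnmt1 (chr9:20907209-20959888, minus strand), Dnmt3a (chr12:3806007-3914443, plus strand), Dnmt3b (chr2:153649450-153687730, plus strand), Uhrf1 (chr17:56303321-56323486, plus strand), Hells (chr19:38930915-38971051, plus strand), a chromatin remodeller needed for normal methylation levels, and Tet1 (chr10:62804570-62908996, minus strand). Those of the Polycomb complexes are Ezh2 (chr6:47530139-47595341, minus strand), Eed (chr7:89954654-89980983, minus strand), Suz12 (chr11:79993106-80034123, plus strand) and Bmi1 (chr2:18677018-18686629, plus strand). Some exon bases of 4 members are shared with an annotated RNA on the opposite strand: 133 bases of Dnmt3a with Dnmt3aos, 174 of Ezh2 with Gm26625, 261 of Eed with E230029C05Rik and 178 of Suz12 with Gm26563. These 4 levels may hold some reads of the partner, since the sources used here do not say whether counting used the strand.

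All 10 genes have RefSeq promoter windows of 300 bases around an annotated start (15 windows, build GRCm38.p6). The windows were searched on both strands for the letters TTCCCGC, for TTCGCGC and for TTGGCGC, which are cores of sites bound by E2F factors, the regulators of genes used in DNA replication. At least 1 of these cores is present in 6 of the 15 windows, which belong to 5 members (Dnmt1, Uhrf1, Hells, Ezh2 and Suz12). Over the mouse gene set, 8.07% of all 32851 windows hold one, and of the 3837 windows with at least 30 CG dinucleotides 21.9% do. These 5 members were among the 9 higher in TMPC than in TM tumours. The rest of those 9, Dnmt3b, Tet1, Eed and Bmi1, have no core in their windows. For each of the 5, 1 window is shown because it holds a core. Capitals mark the cores on either strand, and GCGCGAA is TTCGCGC read on the other strand.
Dnmt1 (chr9:20952574-20952873, minus strand): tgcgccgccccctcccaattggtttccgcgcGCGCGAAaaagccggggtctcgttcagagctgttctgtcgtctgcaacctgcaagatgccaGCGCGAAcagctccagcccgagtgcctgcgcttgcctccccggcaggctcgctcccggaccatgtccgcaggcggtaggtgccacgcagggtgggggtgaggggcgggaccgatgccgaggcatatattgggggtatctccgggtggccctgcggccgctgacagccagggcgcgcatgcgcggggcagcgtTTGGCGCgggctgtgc
Uhrf1 (chr17:56304063-56304362, plus strand): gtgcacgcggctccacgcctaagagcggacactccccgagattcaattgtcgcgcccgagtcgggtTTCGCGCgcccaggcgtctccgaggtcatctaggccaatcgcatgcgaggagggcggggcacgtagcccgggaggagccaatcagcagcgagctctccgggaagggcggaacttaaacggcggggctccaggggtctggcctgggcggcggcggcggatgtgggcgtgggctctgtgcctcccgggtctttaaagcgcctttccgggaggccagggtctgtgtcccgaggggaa
Hells (chr19:38930740-38931039, plus strand): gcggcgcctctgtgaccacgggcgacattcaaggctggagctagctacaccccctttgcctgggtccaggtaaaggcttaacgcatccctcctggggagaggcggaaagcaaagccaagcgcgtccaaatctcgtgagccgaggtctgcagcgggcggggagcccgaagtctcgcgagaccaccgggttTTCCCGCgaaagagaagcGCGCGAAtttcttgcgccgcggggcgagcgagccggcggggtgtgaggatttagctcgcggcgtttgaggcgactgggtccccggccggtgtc
Ezh2 (chr6:47594981-47595280, minus strand): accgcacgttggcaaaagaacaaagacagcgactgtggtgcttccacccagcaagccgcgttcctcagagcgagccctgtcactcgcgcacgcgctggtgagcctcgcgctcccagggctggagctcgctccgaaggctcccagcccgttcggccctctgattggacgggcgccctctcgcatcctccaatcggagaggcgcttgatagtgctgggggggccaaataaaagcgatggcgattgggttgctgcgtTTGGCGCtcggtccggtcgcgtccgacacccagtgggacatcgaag
Suz12 (chr11:79992856-79993155, plus strand): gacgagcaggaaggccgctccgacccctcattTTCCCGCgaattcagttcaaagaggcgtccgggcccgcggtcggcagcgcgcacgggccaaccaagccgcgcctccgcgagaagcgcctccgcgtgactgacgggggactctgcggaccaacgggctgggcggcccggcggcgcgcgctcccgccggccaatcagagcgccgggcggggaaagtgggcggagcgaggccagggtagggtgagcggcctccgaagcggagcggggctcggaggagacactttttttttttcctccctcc
These 5 windows hold between 31 and 41 CG dinucleotides each, where the median over all windows is 7. The Dnmt1 window holds 3 cores and the Hells window 2, and each of the other 3 holds 1. The Uhrf1 window that is not shown also holds a core, with 12 CG dinucleotides. Windows of Dnmt3a with 46 and 47 CG dinucleotides and that of Dnmt3b with 30 hold no core. The box CCAAT is present in windows of 5 members (37.4% of all windows hold it) and the E-box CACGTG in windows of Dnmt3a and Bmi1 (7.15% of all windows). These counts are of members, some of which have several windows, so they cannot be set directly against shares of windows. A match of letters is a description of the window and no evidence of a bound factor.

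Total counts were 16584781 to 21107310 per library, with 17122 to 18363 genes detected, and levels are given in CPM, read counts scaled to a common library total, with TMM factors over all 12 libraries. Genes of the gastric surface were high in orthotopic tumours: the gastrokine Gkn1 had 1310 to 1960 CPM there, against at most 0.175 CPM in subcutaneous TMPC, 0.0544 CPM in subcutaneous TMP and 0.458 CPM in subcutaneous TM tumours. The gastric mucin gene Muc5ac had 375 to 1080 CPM in orthotopic tumours and at most 1.13 CPM in subcutaneous TMPC and TMP tumours, but 7.88 and 4.35 CPM in TM replicates 1 and 3, which also held Tff2, a peptide of gastric mucus, at 18.0 and 9.07 CPM (325 to 456 CPM in orthotopic tumours). The epithelial gene Epcam was present in every library (51.6 to 672 CPM). Subcutaneous TM replicate 2 stood apart, with the leukocyte gene Ptprc at 1060 CPM and Epcam at 51.6 CPM, against at most 167 CPM and at least 470 CPM in the other TM libraries. Orthotopic replicate 3 held 3000 CPM of the liver gene Alb, against 2.63 and 0.408 CPM in the other orthotopic libraries. Xist, the RNA of the inactive X chromosome, had at most 13.5 CPM in the libraries of TMPC and TMP tumours, against 192 to 1390 CPM in TM tumours. In TM replicate 2 the 4 genes of the Y chromosome that were read (Eif2s3y, Kdm5d, Uty and Ddx3y) were at 0, while TM replicates 1 and 3 held both Xist, at 305 and 192 CPM, and Ddx3y, at 32.8 and 43.8 CPM. In both comparisons with TM tumours, the tumour label and a difference in the sex of cells or hosts therefore cannot be told apart. For the members and each list described, a count of calls that changed without TM replicate 2 or orthotopic replicate 3 is given also without that library. In bulk tissue, fewer cells of a type and less RNA per cell cannot be told apart.

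The genes that maintain methylation, Dnmt1, Uhrf1 and Hells, had their highest levels in subcutaneous TMPC tumours, lower levels in subcutaneous TMP tumours and the lowest in orthotopic TMPC and subcutaneous TM tumours. Dnmt1, the maintenance methyltransferase, had 70.8, 110 and 126 CPM in orthotopic TMPC tumours, 386, 384 and 360 CPM in subcutaneous TMPC tumours, 309, 312 and 255 CPM in subcutaneous TMP tumours and 105, 100 and 94.1 CPM in subcutaneous TM tumours. All 6 libraries of subcutaneous TMPC and TMP tumours lay above all others, while the ranges of orthotopic TMPC and subcutaneous TM tumours overlapped. Uhrf1, which recognises half-methylated DNA and recruits Dnmt1, had 35.8, 65.6 and 91.2 CPM in orthotopic TMPC tumours, 201, 144 and 144 CPM in subcutaneous TMPC tumours, 113, 132 and 106 CPM in subcutaneous TMP tumours and 46.1, 30.1 and 44.6 CPM in subcutaneous TM tumours. Its order was that of Dnmt1, with orthotopic replicate 1 inside the TM range. Hells had 37.1, 55.7 and 63.4 CPM in orthotopic TMPC tumours, 147, 149 and 175 CPM in subcutaneous TMPC tumours, 110, 108 and 101 CPM in subcutaneous TMP tumours and 24.8, 14.5 and 23.1 CPM in subcutaneous TM tumours. No groups of Hells overlapped, and its highest library was 12.1 times its lowest, the widest span of the 10 genes.

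The enzymes of new methylation and of its removal were less even. Dnmt3a had 89.9, 90.5 and 95.3 CPM in orthotopic TMPC tumours, 106, 263 and 94.3 CPM in subcutaneous TMPC tumours, 89.4, 122 and 135 CPM in subcutaneous TMP tumours and 92.2, 97.6 and 73.8 CPM in subcutaneous TM tumours. Its ranges overlapped between all neighbouring groups, and subcutaneous TMPC replicate 2, with 4924 reads, was alone above 135 CPM. Dnmt3b had 4.36, 6.11 and 12.9 CPM in orthotopic TMPC tumours, 14.4, 19.6 and 19.8 CPM in subcutaneous TMPC tumours, 22.1, 12.7 and 17.7 CPM in subcutaneous TMP tumours and 6.18, 5.22 and 4.54 CPM in subcutaneous TM tumours. Orthotopic replicate 3, which held the liver RNA, reached the lower end of the TMP range. Tet1 had 1.91, 1.81 and 0.949 CPM in orthotopic TMPC tumours, 9.3, 3.9 and 5.11 CPM in subcutaneous TMPC tumours, 5.89, 6.2 and 3.76 CPM in subcutaneous TMP tumours and 1.86, 0.87 and 1.74 CPM in subcutaneous TM tumours. These values rest on 13 to 159 reads per library, and all 6 libraries of orthotopic TMPC and subcutaneous TM tumours stayed under 2 CPM.

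Among the Polycomb genes, Ezh2 varied more than the other core subunits of its complex: its highest library was 5.18 times its lowest, against 2.39 for Suz12 and 1.85 for Eed. Ezh2 had 35.3, 37 and 43.6 CPM in orthotopic TMPC tumours, 115, 148 and 121 CPM in subcutaneous TMPC tumours, 94.6, 95 and 82.5 CPM in subcutaneous TMP tumours and 40.1, 28.6 and 37.1 CPM in subcutaneous TM tumours. Subcutaneous TMPC and TMP tumours were each apart from all other groups, and orthotopic TMPC and subcutaneous TM tumours overlapped. Eed, which binds methylated histone H3 and stabilises the complex, had 57.1, 54.1 and 64.4 CPM in orthotopic TMPC tumours, 72.9, 77 and 86.9 CPM in subcutaneous TMPC tumours, 81, 67.6 and 73.6 CPM in subcutaneous TMP tumours and 48.2, 50.6 and 47 CPM in subcutaneous TM tumours. Its span was the narrowest of the 10 genes, yet the TM libraries lay below all others. Suz12, a core subunit needed for PRC2 activity, had 97.7, 86.2 and 108 CPM in orthotopic TMPC tumours, 167, 201 and 206 CPM in subcutaneous TMPC tumours, 186, 156 and 150 CPM in subcutaneous TMP tumours and 106, 105 and 89.5 CPM in subcutaneous TM tumours. Suz12 was high in the same 6 libraries as Ezh2, and the ranges of TMPC and TMP tumours under the skin overlapped. Bmi1, a PRC1 subunit first known as an oncogene that represses Cdkn2a, had 77.5, 82.7 and 71.4 CPM in orthotopic TMPC tumours, 141, 172 and 122 CPM in subcutaneous TMPC tumours, 101, 105 and 95.2 CPM in subcutaneous TMP tumours and 62.4, 79 and 54.1 CPM in subcutaneous TM tumours. Subcutaneous TMPC and TMP tumours did not overlap for Bmi1, and TM replicate 2 was inside the orthotopic range.

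**Figure D1:**
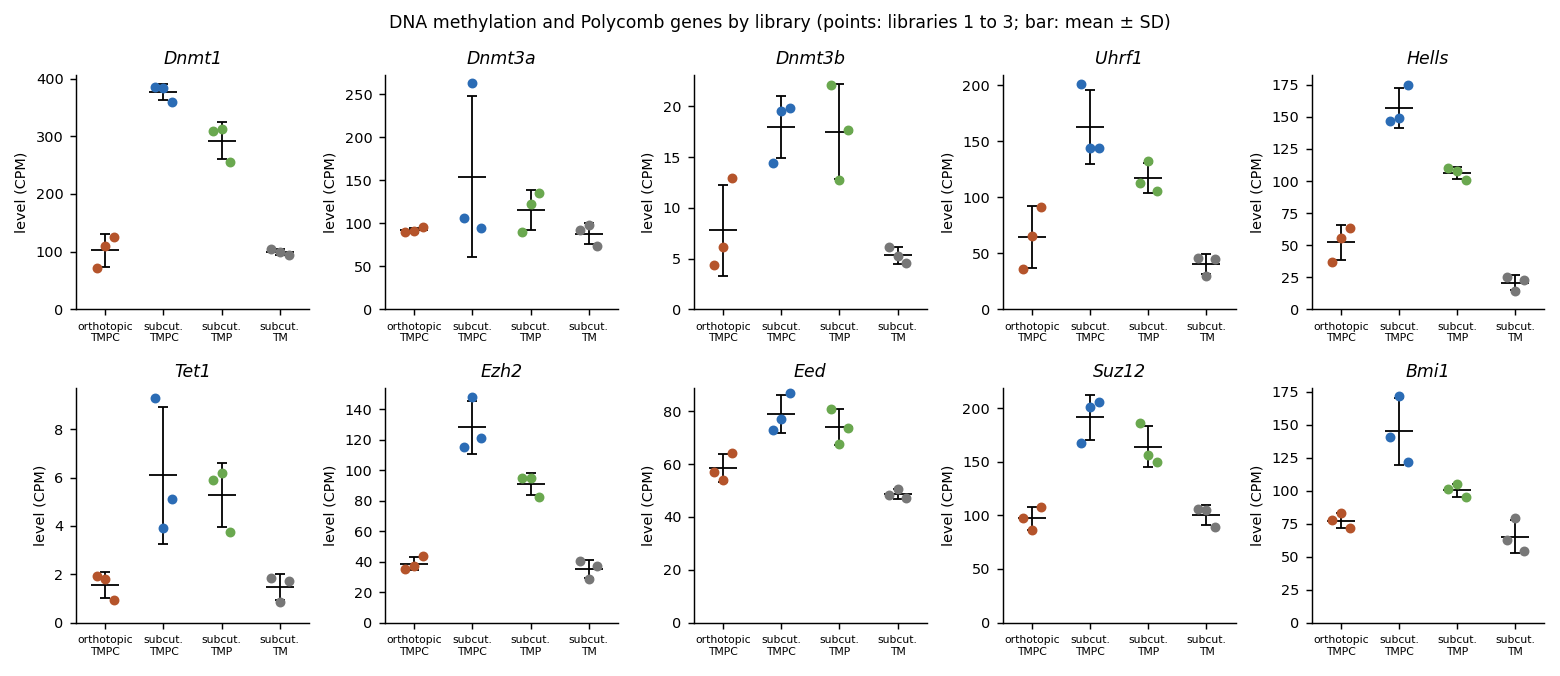
Level (CPM, vertical axis, from 0) of each of the 10 genes in every library, by group on the horizontal axis; points are the 3 libraries of a group and the bar and whiskers are their mean and SD. For Dnmt1, Uhrf1, Hells, Tet1, Ezh2, Eed, Suz12 and Bmi1 the 6 libraries of subcutaneous TMPC and TMP tumours lie above the other 6, and for Dnmt3a the group ranges overlap, with 1 subcutaneous TMPC library at 263 CPM.

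For 9 of the 10 genes the groups ran, by mean, from subcutaneous TMPC through subcutaneous TMP and orthotopic TMPC to subcutaneous TM tumours. The exception was Suz12, whose lowest group was orthotopic TMPC. Subcutaneous TMPC and TMP tumours overlapped for Dnmt3a, Dnmt3b, Tet1, Eed and Suz12, and were apart for the other 5. The ranges of orthotopic TMPC and subcutaneous TM tumours overlapped for 8 of the 10 genes and were apart for Hells and Eed, which were higher in the orthotopic tumours (over all genes, 24.7% had these 2 groups apart in either direction). Per kilobase of exon, Dnmt1 had the highest mean of the 10 genes in subcutaneous TMPC tumours (51.0 ± 1.96 CPM per kb, SD, n = 3) and in subcutaneous TMP tumours (39.6 ± 4.34 CPM per kb), but Suz12 was first in orthotopic TMPC tumours, where Dnmt1 was at 13.9 ± 3.87 CPM per kb, and in subcutaneous TM tumours, where Dnmt1 was at 13.5 ± 0.755 CPM per kb. Tet1 was last in every group, with a mean of at most 0.395 CPM per kb.

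The comparison of TMP with TM tumours, both under the skin, showed higher expression of most of the set. Adjusted p-values come from the quasi-likelihood test of edgeR, adjusted over all genes by Benjamini-Hochberg and called under 0.05, and log2 fold changes are given ± SE, with TMP over TM. Past the threshold were 8 members, all higher in TMP tumours, against 14.3% of all 15277 tested genes called higher. Groups were apart, with all TMP libraries above all TM libraries, for 9 members (27.5% of all genes). The median log2 fold change was 1.42 over the 10 members and -0.07 over all tested genes.

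Hells rose most, by 2.32 ± 0.19 on the log2 scale, which is 5.00-fold (adjusted p = 0.00128). Dnmt1 rose by 1.51 ± 0.14, with a mean of 292 ± 32.0 CPM in TMP and 99.8 ± 5.57 CPM in TM tumours (SD, n = 3 each; edgeR adjusted p = 0.00135). Uhrf1 rose by the same amount, 1.51 ± 0.20 (adjusted p = 0.00295). The maintenance genes were thus between 2.85-fold and 5.00-fold higher in TMP tumours. Dnmt3b rose by 1.68 ± 0.29 (adjusted p = 0.00678), whereas the change of Dnmt3a did not pass the test (0.35 ± 0.39, adjusted p = 0.523). Tet1 was called at 1.79 ± 0.47 (adjusted p = 0.0258), but not without TM replicate 3 (adjusted p = 0.0507), TMP replicate 1 (0.0869) or TMP replicate 2 (0.0834).

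Of the PRC2 core, Ezh2 rose by 1.33 ± 0.16, with 90.7 ± 7.10 CPM in TMP and 35.3 ± 5.96 CPM in TM tumours (SD, n = 3 each; edgeR adjusted p = 0.00235). Suz12 (0.67 ± 0.16, adjusted p = 0.0189) and Eed (0.57 ± 0.14, adjusted p = 0.0213) rose by smaller amounts. The call of Suz12 was lost without TM replicate 3 (adjusted p = 0.0517) and without TMP replicate 1 (0.0559), and that of Eed without TM replicate 3 (0.0566), TMP replicate 1 (0.0623) or TMP replicate 3 (0.0658). Bmi1 missed the threshold (0.58 ± 0.20, adjusted p = 0.0656), although its groups were apart, and passed it without TM replicate 2 (0.80, adjusted p = 0.0120), the library with the high leukocyte signal, and without TMPC replicate 1 (adjusted p = 0.0489) or TMPC replicate 2 (0.0402). Without TM replicate 2, 9 members were called higher. Without TM replicate 3, or without TMP replicate 1, 5 were. Over all genes, 2188 were called higher with all libraries and 2514 without TM replicate 2. Without TM replicate 3 it was 1673 and without TMP replicate 1 it was 1067.

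The leukocyte markers moved the other way: over 10 genes their summed level was 409 to 929 CPM in TMP and 2500 to 8390 CPM in TM tumours, and 6 of the 7 that could be tested were lower in TMP tumours, with a median log2 fold change of -3.88. Of these 7, 5 were lower without TM replicate 2 and the median was -2.21. Each of the 10 leukocyte genes was detected in at least 1 library of both groups. The 18 genes of a cell division list, which holds replication and mitosis genes such as Mki67, Mcm2 and Ccnb1, summed to 2820 to 3160 CPM in TMP and 862 to 1030 CPM in TM tumours, and 17 of them were higher in TMP tumours with a median log2 fold change of 1.54 (18 and 1.62 without TM replicate 2). Of 7 fibroblast markers 1 was lower in TMP tumours (2 without TM replicate 2), and 0 of 5 endothelial and 0 of 7 epithelial markers were called with or without that library. The part of these in the members' changes was not tested.

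TMPC tumours were then compared with TMP tumours at the subcutaneous site. No gene of the 15277 passed edgeR's threshold (0.0% called), so 0 members did. An unadjusted p under 0.05 was found for 465 genes (3.04%), below the share of 0.05 that no difference would give. DESeq2 called 17 genes, none of them a member. All 10 members had a positive log2 fold change, with a median of 0.37 against 0.01 over all tested genes, and the groups were apart with TMPC above TMP for 5 members (7.15% of all genes). These were Hells (0.54 ± 0.18), Bmi1 (0.50 ± 0.20), Ezh2 (0.48 ± 0.16), Uhrf1 (0.45 ± 0.20) and Dnmt1 (0.34 ± 0.14), all with an adjusted p of 0.9999 and unadjusted p-values between 0.0157 for Ezh2 and 0.0473 for Uhrf1. Ezh2, for example, averaged 128 ± 17.5 CPM in TMPC and 90.7 ± 7.10 CPM in TMP tumours (SD, n = 3 each). Of the other 5, Dnmt3a, Dnmt3b and Tet1 changed sign when single libraries were left out, Dnmt3a to -0.21 without TMPC replicate 2.

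Set against TM tumours, TMPC tumours under the skin had 9 of the 10 members higher past edgeR's threshold, against 18.0% of all tested genes called higher, and the same 9 had groups apart (26.0% of all genes). This comparison shares the TM libraries with that of TMP over TM, so the 2 sets of values are not independent. The median log2 fold change of the members was 1.75, against -0.07 over all tested genes. No single library left out changed any member's call.

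Hells rose by 2.87 ± 0.19, or 7.29-fold, with 157 ± 15.8 CPM in TMPC and 20.8 ± 5.56 CPM in TM tumours (SD, n = 3 each; edgeR adjusted p = 0.000537). Uhrf1 rose by 1.96 ± 0.20 (adjusted p = 0.000727) and Dnmt1 by 1.85 ± 0.14 (adjusted p = 0.000537). Tet1 rose by 1.97 ± 0.47 (adjusted p = 0.0144) and Dnmt3b by 1.70 ± 0.29 (adjusted p = 0.00417). Dnmt3a again did not pass the test (0.76 ± 0.39, adjusted p = 0.163), and its value was 0.19 when TMPC replicate 2, the library at 263 CPM, was left out.

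Ezh2 rose by 1.81 ± 0.16 (edgeR adjusted p = 0.000609), more than Suz12 (0.87 ± 0.16, adjusted p = 0.00526) or Eed (0.63 ± 0.14, adjusted p = 0.0106). Bmi1 rose by 1.08 ± 0.21, with 145 ± 25.2 CPM in TMPC and 65.2 ± 12.7 CPM in TM tumours (adjusted p = 0.00633). The difference in size between Ezh2 and its partners was not itself tested. Leukocyte markers summed to 534 to 1090 CPM in TMPC and 2500 to 8390 CPM in TM tumours, with Cd3e, a T cell gene, at 0 in all 3 TMPC libraries. All 7 leukocyte genes tested were lower in TMPC tumours, with a median log2 fold change of -4.46; without TM replicate 2, 6 were lower and the median was -2.78. Of the 18 cell division genes 17 were higher, with a median of 1.88 (18 and 1.95 without TM replicate 2). Endothelial markers summed to 105 to 146 CPM in TMPC and 184 to 619 CPM in TM tumours, and 2 of 5 were lower in TMPC tumours, but 0 without TM replicate 2. Fibroblast markers summed to 3660 to 5490 CPM in TMPC and 3370 to 15900 CPM in TM tumours, with 1 of 7 lower in TMPC tumours and 4 without TM replicate 2. None of the 7 epithelial markers passed edgeR's threshold with all libraries, and 2 were lower in TMPC tumours without TM replicate 2. The part of these lists in the result was not tested.

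The site comparison set orthotopic over subcutaneous TMPC tumours and gave the opposite direction for the set. By edgeR 7 members were lower in orthotopic tumours past the threshold, against 13.8% of the 15123 tested genes called lower, and groups were apart for 9 members (26.3% of all genes). The median log2 fold change was -1.21 over the members and 0.05 over all tested genes. This comparison uses the same subcutaneous TMPC libraries as those above.

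Dnmt1 fell by 1.82 ± 0.24 on the log2 scale, to 102 ± 28.6 CPM in orthotopic tumours, against 376 ± 14.5 CPM in subcutaneous tumours (SD, n = 3 each; edgeR adjusted p = 0.00941). Hells fell by 1.54 ± 0.24 (adjusted p = 0.0109), and without orthotopic replicate 2 its adjusted p was 0.0514. Uhrf1 was called at -1.28 ± 0.36 (adjusted p = 0.0413) and Tet1 at -1.91 ± 0.50 (adjusted p = 0.0359). Neither call held throughout: that of Tet1 was lost in each of the 6 fits that left out 1 library (adjusted p from 0.0576 to 0.0979), and that of Uhrf1 in 5 of the 6, the exception being the fit without orthotopic replicate 3, and over the 6 its adjusted p ran from 0.0175 to 0.108. Dnmt3b did not pass the test (-1.14 ± 0.47, adjusted p = 0.107) but did without orthotopic replicate 3, the library with liver RNA (-1.75, adjusted p = 0.0169). Dnmt3a did not differ past the threshold (-0.71 ± 0.41, adjusted p = 0.226), and without subcutaneous replicate 2 its value was -0.13.

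Ezh2 fell by 1.68 ± 0.18, to 38.7 ± 4.35 CPM in orthotopic tumours, against 128 ± 17.5 CPM in subcutaneous tumours (SD, n = 3 each; edgeR adjusted p = 0.00756). Suz12 fell by 0.93 ± 0.16 (adjusted p = 0.0140) and Bmi1 by 0.86 ± 0.17 (adjusted p = 0.0175). Those 2 calls were lost without orthotopic replicate 1 (adjusted p = 0.0524 for Suz12 and 0.0617 for Bmi1) and without orthotopic replicate 2 (0.0592 for Suz12 and 0.0597 for Bmi1). Eed was not called (-0.38 ± 0.15, adjusted p = 0.0992). The calls of Dnmt1 and Ezh2 were kept in all 6 fits that left out 1 library, with adjusted p-values up to just under 0.05 for Dnmt1 and up to 0.0476 for Ezh2. The number of members called was 7 without orthotopic replicate 3, 3 without orthotopic replicate 1 and 2 without orthotopic replicate 2. Calls over all genes fell too: 2086 genes were called lower with all libraries and 2198 without orthotopic replicate 3. Without orthotopic replicate 1 it was 562 and without orthotopic replicate 2 it was 99.

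In the authors' deposited table for this comparison the log2 fold changes were -1.84 for Dnmt1, -1.70 for Ezh2 and -1.16 for Dnmt3b, with adjusted p-values of 3.99e-09, 8.23e-14 and 0.0511. Epithelial markers summed to 4360 to 7220 CPM in orthotopic and 1030 to 3410 CPM in subcutaneous tumours, and fibroblast markers to 6780 to 18600 CPM in orthotopic and 3660 to 5490 CPM in subcutaneous tumours. Leukocyte markers summed to 1210 to 1660 CPM in orthotopic and 534 to 1090 CPM in subcutaneous tumours. Cell division genes summed to 1090 to 1780 CPM in orthotopic and 3560 to 4110 CPM in subcutaneous tumours, and 17 of 18 were lower in orthotopic tumours, with a median log2 fold change of -1.45 (17 and -1.66 without orthotopic replicate 3). Called higher in orthotopic tumours were 3 of 7 epithelial, 2 of 7 fibroblast, 3 of 6 leukocyte and 1 of 5 endothelial markers, and without orthotopic replicate 3 the epithelial count was 4 and the endothelial count 0. The part of these in the members' changes was not tested.

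**Figure D2:**
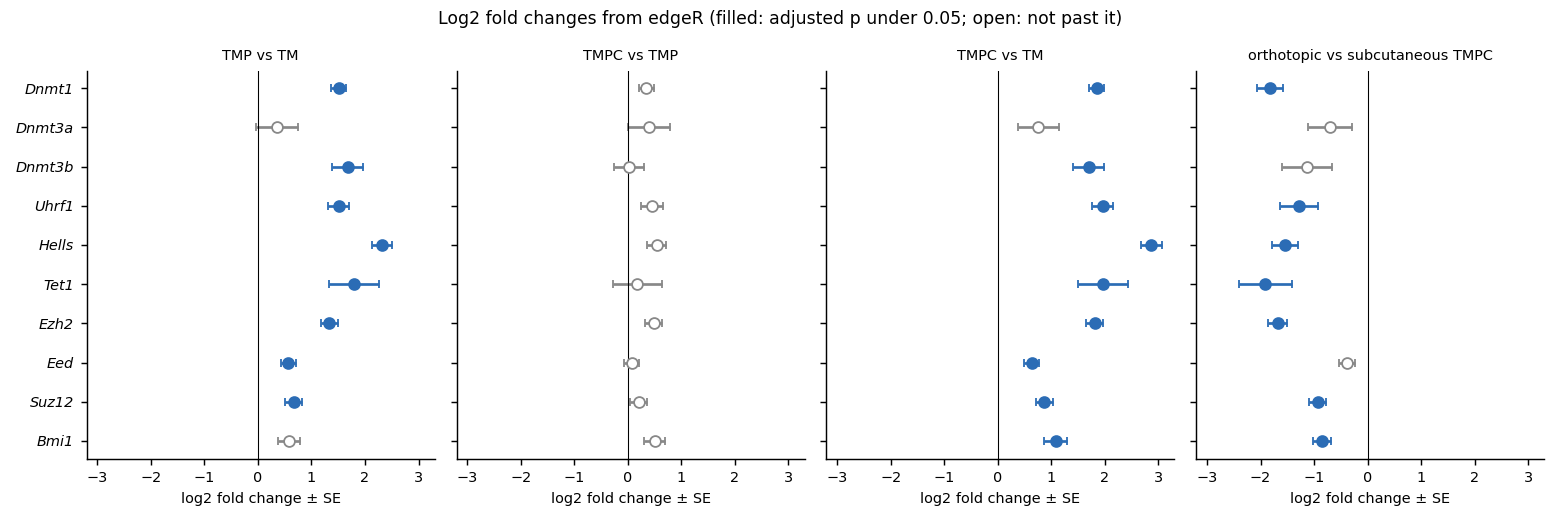
Log2 fold change (horizontal axis) of each member in the 4 comparisons, 1 panel each, from edgeR; points are estimates, whiskers are ± SE, and filled points passed an adjusted p of 0.05. The 8 filled points of TMP over TM and the 9 of TMPC over TM are all above 0, no point is filled for TMPC over TMP, and the 7 filled points of orthotopic over subcutaneous TMPC tumours are all below 0.

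Ezh1, the alternative catalytic subunit of PRC2, which is typical of cells that do not divide, ran against Ezh2. Per kilobase of exon, Ezh1 averaged 6.67 ± 1.47 CPM per kb in orthotopic TMPC tumours, 4.33 ± 0.423 in subcutaneous TMPC tumours, 4.85 ± 0.441 in subcutaneous TMP tumours and 8.71 ± 0.393 in subcutaneous TM tumours (SD, n = 3 each). By edgeR, Ezh1 was lower in TMP than in TM tumours (-0.88 ± 0.15, adjusted p = 0.00594) and lower in TMPC than in TM tumours (-1.07 ± 0.15, adjusted p = 0.00192). Between the sites its difference did not pass the threshold (0.67 ± 0.20, adjusted p = 0.0505). The log2 ratio of Ezh2 to Ezh1 per kilobase was -0.62, -0.26 and 0.32 in orthotopic TMPC tumours, 2.17, 2.31 and 1.96 in subcutaneous TMPC tumours, 1.43, 1.70 and 1.33 in subcutaneous TMP tumours and -0.51, -0.97 and -0.72 in subcutaneous TM tumours. By this measure, which divides by the summed length of all annotated exons, Ezh1 was higher in the 3 TM libraries and 2 of the 3 orthotopic libraries. In all 6 subcutaneous TMPC and TMP libraries Ezh2 was higher. The lengths of the transcripts in use were not measured, so the order is uncertain where the log2 ratio lies near 0.

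**Figure D3:**
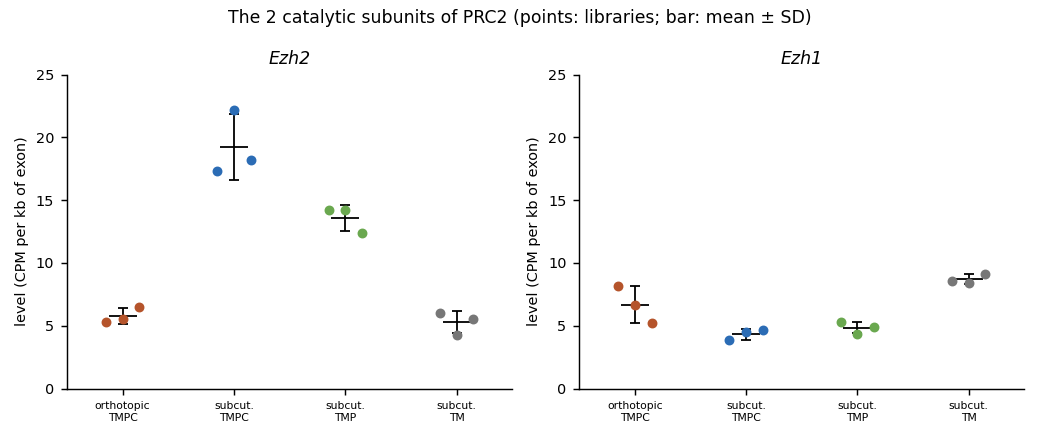
Level per kilobase of exon (CPM per kb, vertical axis, from 0) of the PRC2 catalytic subunits Ezh2 and Ezh1 by group; points are the 3 libraries of a group and the bar and whiskers are their mean and SD. Ezh2 averages 19.2 CPM per kb in subcutaneous TMPC and 5.28 CPM per kb in subcutaneous TM tumours, where Ezh1 averages 4.33 and 8.71 CPM per kb.

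Other enzyme pairs with a shared substrate were set side by side in the same way. Dnmt3a exceeded Dnmt3b per kilobase in all 12 libraries, by a mean log2 ratio of 2.01 ± 0.76 in orthotopic TMPC tumours, 1.26 ± 0.75 in subcutaneous TMPC tumours, 1.03 ± 0.65 in subcutaneous TMP tumours and 2.34 ± 0.16 in subcutaneous TM tumours (SD, n = 3 each). Tet1 was the least abundant of the 3 Tet enzymes: its ratio to Tet3 per kilobase was 0.0134 in orthotopic TMPC tumours, 0.0387 in subcutaneous TMPC tumours, 0.0335 in subcutaneous TMP tumours and 0.0122 in subcutaneous TM tumours. Neither Tet2 nor Tet3 passed the threshold in any of the 4 comparisons, and their difference from Tet1 was not itself tested.

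Genes that work with the members were counted in lists by function. Of 18 tested other genes of DNA methylation, 4 were higher and 1 lower in TMP than in TM tumours, 0 changed between TMPC and TMP tumours, 7 were higher and 2 lower in TMPC than in TM tumours, and 1 was higher and 5 lower in orthotopic than in subcutaneous TMPC tumours (edgeR adjusted p under 0.05; 14.3% and 13.4%, 0.0%, 18.0% and 17.8%, and 14.0% and 13.8% of all genes). Without TM replicate 2 the counts were 4 higher and 1 lower in TMP and 9 higher and 1 lower in TMPC tumours, and without orthotopic replicate 3 they were again 1 higher and 5 lower. Cdca7, which activates Hells for nucleosome remodelling, was higher in TMP than in TM tumours (1.45 ± 0.41, adjusted p = 0.0335), higher in TMPC than in TM tumours (1.64 ± 0.41, adjusted p = 0.0176) and lower in orthotopic tumours (-1.67 ± 0.35, adjusted p = 0.0201). Mbd3, a subunit of the NuRD repressor complex, had the same directions, with 223 ± 13.8 CPM in TMPC and 95.2 ± 7.93 CPM in TM tumours (1.17 ± 0.13, adjusted p = 0.00100). Zbtb4, a reader of methylated DNA, ran the other way and was lower in TMPC than in TM tumours (-1.33 ± 0.20, adjusted p = 0.00263) and higher in orthotopic than in subcutaneous TMPC tumours (1.24 ± 0.15, adjusted p = 0.00872). Ahcy, which clears the product that inhibits methyltransferases, rose by 1.48 ± 0.34 in TMPC over TM tumours (adjusted p = 0.0127). Tdg, which removes oxidised methylcytosine, was near 0 counts in every library of the deposited table and has no usable level.

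Of 8 other PRC2 genes, 2 were higher and 2 lower in TMP than in TM tumours (14.3% and 13.4% of all genes). In TMPC over TM tumours 2 were higher and 2 lower (18.0% and 17.8% of all genes). Between TMPC and TMP tumours 0 changed (0.0%), and 0 were higher and 2 lower in orthotopic tumours (14.0% and 13.8%). Without TM replicate 2, 2 were higher and 1 lower in TMP and 3 were higher and 1 lower in TMPC tumours, and without orthotopic replicate 3, 1 was higher and 2 lower in orthotopic tumours. Rbbp4, the histone chaperone of the PRC2 core, was higher in TMPC than in TM tumours (1.01 ± 0.13, adjusted p = 0.00141), and lower in orthotopic than in subcutaneous TMPC tumours (-0.94 ± 0.13, adjusted p = 0.0101). Mtf2, which guides PRC2 to CG-rich DNA, rose by 0.75 ± 0.17 in TMPC over TM tumours (adjusted p = 0.0128), while Phf1, a related protein, was lower (-1.5 ± 0.46, adjusted p = 0.0359). Phf1 had 59.2 CPM in TM replicate 2, against 24.6 and 27.3 CPM in the other TM libraries, and its call was lost without that library (-0.90, adjusted p = 0.0781), while that of Ezh1 was kept (adjusted p = 0.00215).

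Of 24 other PRC1 genes, 5 were higher in TMP than in TM tumours (14.3% of all genes) and 9 in TMPC than in TM tumours (18.0%). In orthotopic tumours 8 were lower than in subcutaneous TMPC tumours (13.8% of all genes). None of the 24 was called in the opposite direction in any of these 3 comparisons. Between TMPC and TMP tumours 0 were called (0.0% of all genes). Without TM replicate 2, 7 were higher and 1 lower in TMP and 9 were higher and 1 lower in TMPC than in TM tumours, and without orthotopic replicate 3, 6 were lower in orthotopic tumours. E2f6, a repressor that recruits a variant PRC1 complex, had 54.2 ± 7.60 CPM in TMPC and 21.7 ± 1.57 CPM in TM tumours (1.25 ± 0.18, adjusted p = 0.00222). L3mbtl2, of the same complex, rose by 1.04 ± 0.22 in TMPC over TM tumours (adjusted p = 0.00990), and Yaf2, a variant subunit, by 1.18 ± 0.19 (adjusted p = 0.00359). Bcor, which scaffolds another variant complex, was lower in orthotopic than in subcutaneous TMPC tumours (-1.46 ± 0.21, adjusted p = 0.01). Of the Cbx readers of canonical complexes, Cbx2 was higher in TMP than in TM tumours (1.78 ± 0.49, adjusted p = 0.0314) and Cbx8 in TMPC than in TM tumours (0.84 ± 0.26, adjusted p = 0.0350). None of the 7 genes that oppose Polycomb marks (the H3K27 demethylases Kdm6a and Kdm6b, and Bap1, Asxl1, Asxl2, Asxl3 and Usp16, which act on H2A ubiquitin) passed edgeR's threshold in any comparison. Without TM replicate 2, 2 of them were called higher in TMP and 1 in TMPC than in TM tumours, and without orthotopic replicate 3, 2 were called lower in orthotopic tumours.

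Genes known to be silenced by these systems were read beside the members. Of 15 germline genes that promoter methylation keeps silent in body tissues, such as Dazl and Mael, 5 passed the filter on low counts in the subcutaneous fit and 4 in the site fit. Dazl and Mael were not among these. With all libraries none was called higher in any comparison by edgeR. The 1 gene called lower was Sycp3, in TMPC over TM tumours (-2.78 ± 0.91, adjusted p = 0.0451), a call lost without TM replicate 2. Tdrd1 was not called, but all TMP and all TMPC libraries lay above all TM libraries. Its value over TM was 3.21 ± 1.11 in TMP (edgeR adjusted p = 0.0625) and 2.57 ± 1.09 in TMPC tumours (0.0971). Of the 5 genes it was the 1 with a positive value in either comparison. Without orthotopic replicate 3, 6 germline genes were tested and 1 was higher in orthotopic tumours.

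Imprinted genes are expressed from 1 parental copy, a choice that depends on DNA methylation set in the germ line. Among them 6 of 15 tested were higher and 1 lower in TMP than in TM tumours (14.3% and 13.4% of all genes). In TMPC over TM tumours 5 were higher and 0 lower (18.0% and 17.8% of all genes). Without TM replicate 2, 6 were higher and 0 lower in TMP tumours and 4 were higher and 1 lower in TMPC tumours. Grb10, an adaptor that restrains growth factor signalling, had 753 ± 272 CPM in TMP and 41.7 ± 9.93 CPM in TM tumours (4.12 ± 0.49, edgeR adjusted p = 0.00223). Cdkn1c, an imprinted cell cycle inhibitor, rose by 3.16 ± 0.37 in TMP over TM tumours (adjusted p = 0.00221) and was lower in orthotopic than in subcutaneous TMPC tumours (-2.12 ± 0.43, adjusted p = 0.0185), where it was the 1 imprinted gene called (3 were called lower without orthotopic replicate 3). Igf2, a growth factor, rose by 4.40 ± 1.02 in TMP over TM tumours (adjusted p = 0.0181), with 72.1, 19.8 and 216 CPM in TMP and 1.97, 2.61 and 9.58 CPM in TM libraries. These genes varied widely within groups: Mest had 217, 34.6 and 8.72 CPM in the subcutaneous TMPC libraries.

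Of 16 classical Polycomb targets, 10 were tested under the skin and 9 between the sites. In TMP over TM tumours 1 was called higher and 1 lower (14.3% and 13.4% of all genes). In TMPC over TM tumours 0 were called higher and 1 lower (18.0% and 17.8%). Between the sites, 14.0% of all genes were called higher and 13.8% lower in orthotopic tumours. Wt1 was higher (1.61 ± 0.47, edgeR adjusted p = 0.0382) and Gata6 lower (-1.16 ± 0.33, adjusted p = 0.0330) in TMP than in TM tumours, and Gata6 was lower in TMPC than in TM tumours (-1.55 ± 0.33, edgeR adjusted p = 0.00977). In orthotopic tumours 3 were higher and 0 lower: Gata4 (3.11 ± 0.44, adjusted p = 0.0103), Gata6 (1.99 ± 0.41, adjusted p = 0.0191) and Wt1 (1.90 ± 0.47, adjusted p = 0.0302). The calls of Wt1 were lost without TM replicate 2 (1.42, adjusted p = 0.0687) and, between the sites, without orthotopic replicate 3 (1.52, adjusted p = 0.0509). Without orthotopic replicate 3, 2 were higher and 1 lower, and without TM replicate 2, 0 were higher and 1 lower in TMP and 1 was higher and 2 lower in TMPC than in TM tumours. Gata4 and Gata6 are also factors of normal gastric epithelium, and Wt1 is a marker of mesothelium. Cdkn2a, the cell cycle inhibitor repressed by Bmi1 and Ezh2 in other cells, averaged 325 ± 47.9 CPM in TMP and 107 ± 85.2 CPM in TM tumours without passing the test (1.60 ± 0.78, adjusted p = 0.155).

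Because replication and mitosis genes moved with the set, the level of each member was also taken relative to them, as log2 CPM minus the mean log2 CPM of the 18 cell division genes in the same library. This is a description with no test. Uhrf1 kept within -0.35 to 0.26 in all 12 libraries, with group means of 0.04 ± 0.34 in orthotopic TMPC, -0.05 ± 0.26 in subcutaneous TMPC, -0.15 ± 0.15 in subcutaneous TMP and 0.00 ± 0.22 in subcutaneous TM tumours (SD, n = 3 each). Ezh2 lay between -0.85 and -0.04 in all libraries, and Dnmt1 between 0.62 and 1.46. Their ranges over the 12 libraries were the narrowest of the 10 genes.

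Hells was at -0.19 ± 0.19 in orthotopic TMPC, -0.09 ± 0.26 in subcutaneous TMPC, -0.28 ± 0.02 in subcutaneous TMP and -0.95 ± 0.30 in subcutaneous TM tumours, so that it was lowest relative to the list in TM tumours. The steadier Polycomb genes were instead highest relative to the list in TM tumours. That follows from their changing less than the list, since in CPM they too were higher in subcutaneous TMP and TMPC than in TM tumours. Eed was at 0.00 ± 0.30 in orthotopic TMPC, -1.08 ± 0.24 in subcutaneous TMPC, -0.80 ± 0.12 in subcutaneous TMP and 0.30 ± 0.16 in subcutaneous TM tumours. Suz12 and Bmi1 were likewise highest relative to the list in TM tumours, at 1.33 ± 0.21 for Suz12 and 0.70 ± 0.38 for Bmi1, and Dnmt3a was at 1.13 ± 0.30 there.

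**Figure D4:**
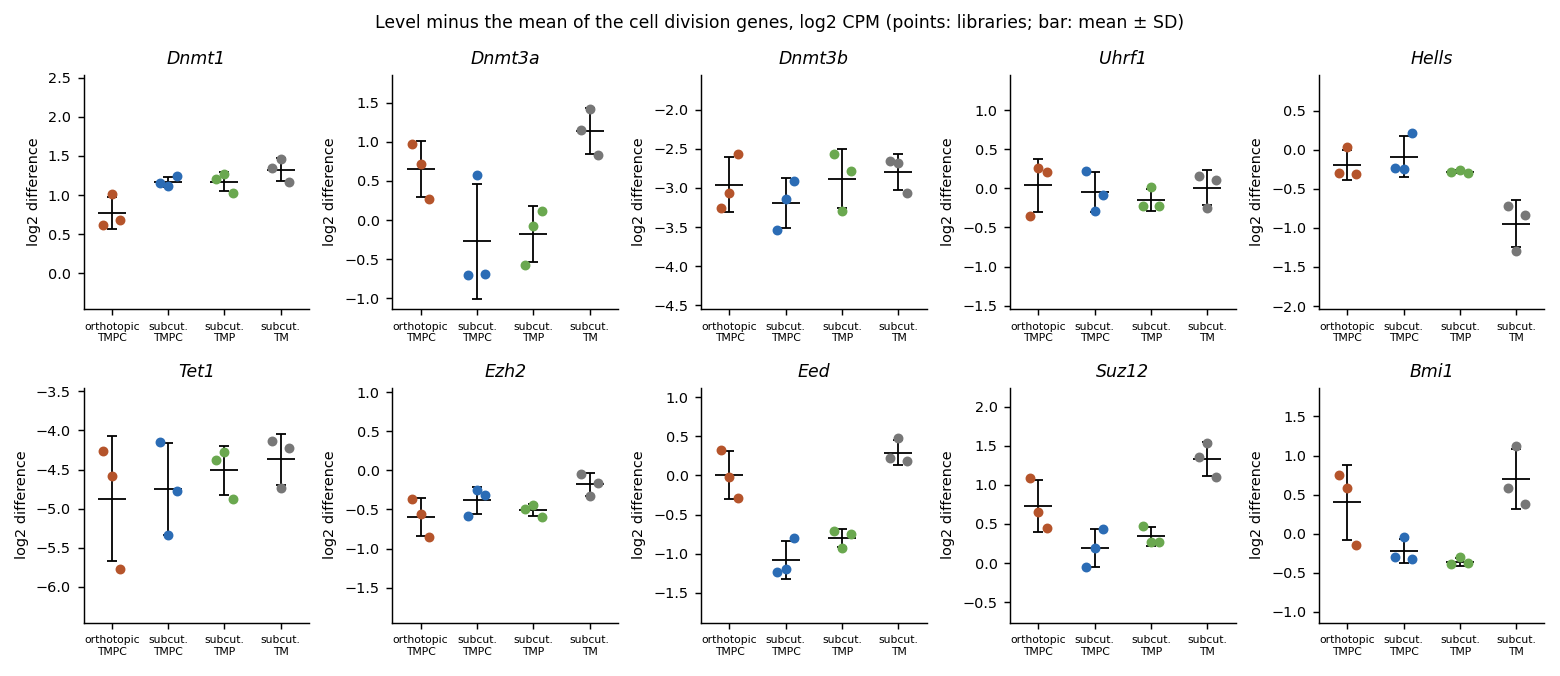
Level of each member minus the mean of the 18 cell division genes (log2 CPM difference, vertical axis, equal span in every panel) by group; points are the 3 libraries of a group and the bar and whiskers are their mean and SD. Uhrf1 stays within -0.35 to 0.26 in all libraries, while Eed is at -1.08 on average in subcutaneous TMPC and at 0.30 in subcutaneous TM tumours.

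The genes whose pattern was most like each member were found as those with the smallest root mean square difference of centred log2 CPM over the 12 libraries, among 11954 genes with a mean of at least 5 CPM. All these libraries share their groups, so the measure is a description. For Ezh2 they were Prim1, a primase subunit (0.118), Mcm7, a helicase subunit (0.127), and Atad5, which unloads the replication clamp (0.128). For Uhrf1 the nearest was Chaf1a, a subunit of the replication-coupled histone chaperone (0.121), followed by the RNA-binding protein gene Lsm2 (0.167) and Zmynd19 (0.191), and for Dnmt1 they were Cdca5, Rpa2 and Blm (0.161 to 0.171). For Hells they were the mitotic gene Prc1, the checkpoint kinase gene Chek1 and the centromeric histone gene Cenpa (0.226 to 0.240).

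For Eed the nearest genes were Bccip, Ap2a1 and Wdr45b (0.0767 to 0.0920) and for Suz12 they were Sf3a2, Cep57 and Ddx23 (0.0959 to 0.104). Bmi1 was nearest to Ccsap, to the replication gene Gins4 and to the cell cycle kinase gene Cdk2 (0.153 to 0.160), Tet1 to Tert, the catalytic subunit of telomerase (0.276), and Dnmt3a to Ldah (0.229). The nearest to Dnmt3b was Kifc5b (0.213), whose reads may be shared with its near-identical copy Kifc1, so that its level is uncertain. Among the members themselves the closest pairs were Eed with Suz12 (0.214) and Dnmt1 with Ezh2 (0.216), and Dnmt1 was farther from Dnmt3a (0.742) than from Dnmt3b (0.366). The measure is not scaled, so genes that vary little lie close to one another. The root mean square of a gene's own centred values was 0.29 for Eed and 0.446 for Suz12. For Dnmt1 and Ezh2 it was 0.894 and 0.805.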

How the data were processed

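Bulk polyadenylated RNA from about 1 cm3 of tumour tissue was read as 150 bp pairs in 12 libraries, per the labels' protocols. Orthotopic TMP transplants and single-cell samples, named in the labels too, are not analysed here. Per the submitters' processing notes, the tools were STAR 2.6.0 and DESeq2 and the build was mm10. Which program counted reads, on which annotation and whether by strand is not given in the sources used here. The authors deposited whole-number counts per gene in a table of the 9 subcutaneous libraries and a table of the 6 TMPC libraries. Beside them stand, per the file headers, the authors' normalized signal (counts divided by a size factor), and in the second table the authors' log2 fold changes and adjusted p-values. From entry 12291 of the first table the symbols and counts no longer line up, so symbols were taken by position from the second. Counts then matched the deposited signal times the size factor, within 0.01 reads, for 24419 of 24419 entries, against 14200 as deposited.

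Counts were tested with edgeR 4.0.16 (R 4.3.3; glmQLFit and glmQLFTest, TMM factors, filterByExpr, Benjamini-Hochberg over all tested genes, threshold 0.05), the 9 subcutaneous libraries in one fit with 6 residual degrees of freedom and the 6 TMPC libraries in another with 4. The SE is the log2 fold change divided by the square root of F. DESeq2 1.42.0, other scalings and filters, a replicate block and leaving out single libraries were the alternatives. All 10 members passed the filter on low counts in both fits. Levels are TMM-scaled CPM, and per kilobase they use the summed exon length of GENCODE vM21; log2 levels have a pseudocount of 0.5 CPM. At these depths 3 counts correspond to 0.142 to 0.181 CPM, which covers counting error only. Within groups, the chi-square per degree of freedom between libraries was 28.4 to 429, so none was a duplicate. The test was tried on simulated counts in which 100 genes differed by 2-fold and another 100 by 4-fold. It found 4% and 56% of them for TMP over TM, 3% and 54% for TMPC over TMP, 3% and 44% for TMPC over TM and 12% and 57% for the sites. The simulation held far fewer changed genes than were called in the real data, such as 4239 for TMP over TM. Its adjusted threshold was therefore stricter, and these shares do not give the power of the comparisons with many calls.

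The members and all gene lists were chosen with earlier results of these data known. Named were every member, and of each list up to 6 called genes per comparison with the smallest adjusted p and any gene of a list of 10 or fewer. Gkn1, Muc5ac, Tff2, Cbx8, Tet2, Tet3, Tdg, Tdrd1, Cdkn2a and the Y-linked genes were named after their values were seen. Promoter windows are those of RefSeq, with all 10 members matched by symbol.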

Additional observations from a re-analysis of the deposited data

How the results depend on the processing

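Under the alternatives tried (2 other scalings, no filter, DESeq2, a replicate block, other sets of libraries in the fit and each library left out), the direction of every member was kept in TMP over TM, TMPC over TM and the site comparison. In TMPC over TM all 160 values, 10 members under 16 alternatives, kept their call too. In TMP over TM 144 of 160 kept it, 9 lost and 7 gained it, and between the sites 98 of 120 kept it, 18 lost and 4 gained it. The number of members called ranged over the fits without single libraries from 5 to 9 for TMP over TM and from 2 to 7 between the sites. In TMPC over TMP no member was called under any alternative, and 7 values changed sign: Dnmt3a to -0.21 without TMPC replicate 2, Dnmt3b to -0.02 with total count scaling, -0.15 without TMP replicate 2, -0.03 without TMPC replicate 2 and -0.05 without TMPC replicate 3, and Tet1 to -0.01 without TMP replicate 3 and -0.23 without TMPC replicate 1; the cause was not tested. Over the fits without single libraries these ran from -0.21 to 0.68 for Dnmt3a, from -0.15 to 0.24 for Dnmt3b and from -0.23 to 0.45 for Tet1. The correlations of same-numbered libraries' deviations ran from -0.29 to 0.32. Those of differently numbered libraries were not computed, so this cannot decide whether replicate numbers pair the samples. With the replicate number as a block 8 members were called for TMP over TM, 0 for TMPC over TMP, 9 for TMPC over TM and 5 between the sites, where Tet1 (-1.88, adjusted p = 0.0732) and Uhrf1 (-1.37, adjusted p = 0.0893) lost the call; for TMP over TM Eed lost it (0.57, adjusted p = 0.0532) and Bmi1 gained it (0.61, adjusted p = 0.0358). With all 12 libraries in one fit Eed (-0.43, adjusted p = 0.0286) and Dnmt3b (-1.20, adjusted p = 0.0437) were also called between the sites, and Dnmt3b was called by DESeq2 (adjusted p = 0.0498). Over all genes, between the sites 4204 were called, against 1777 with the block and 6372 by DESeq2; for TMPC over TM 5469, against 3536 with only those 2 groups in the fit; and for TMPC over TMP 0, against 17 by DESeq2. Without single libraries these counts ran from 1550 to 4885 for TMP over TM (4239 with all), from 3414 to 6390 for TMPC over TM and from 387 to 4789 between the sites. Depth limits Tet1 most, at 13 to 159 reads per library.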
